A study of Caenorhabditis elegans with 11 samples.

Results

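In the genome of the nematode Caenorhabditis elegans, 372 of 100257 bins of 1 kb carried more RNA polymerase II (Pol II) in every library without HRDE-1 than in any library with it, although no bin marked GRTS lay near. The bins were chosen by value and by place. The lowest of the 4 hrde-1 mutant libraries had to exceed the highest of the other 4, with a mean in the mutants of at least 1.7 times the mean of the others and at least 8 RPKM. A chosen bin carried none of the marks GRTS, GRH and misanotated (spelled as in the deposited table), and no GRTS bin lay within 5 bins of it on its chromosome. The hrde-1 difference of these bins is therefore the basis of the choice, and it is described here. Counts of tested bins for that contrast restate the choice and support nothing.

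In nuclear RNA interference, an Argonaute protein carries small RNAs into the nucleus and guides silencing of the genes they match. HRDE-1 is the Argonaute of this pathway in the worm's germline, where it is needed for silencing to be passed on to later generations and where retrotransposons are among its natural targets. MET-2 and SET-25 are methyltransferases of lysine 9 of histone H3, a mark of heterochromatin that forms at such targets, and SET-32 is another SET domain protein of the pathway. GRTS and GRH are terms of this field for regions in which germline nuclear RNAi maintains transcriptional silencing or heterochromatin. The sources used here do not say how the deposited marks were made.

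Pol II was mapped by chromatin immunoprecipitation and sequencing in young adult hermaphrodites fed the E. coli strain OP50, with 1 library for each of 8 genotypes. The 4 libraries with intact hrde-1 were the wild-type strain N2, the mutant set-32(red11), the double mutant met-2(n4256) set-25(n5021), and the mutant that joins these 3 alleles, called the triple SET mutant below after the SET domain that the proteins share. The 4 hrde-1 mutant libraries carried hrde-1(tm1200) in each of those backgrounds. They are called hrde-1, then set-32 hrde-1, then met-2 set-25 hrde-1 and lastly, with all 4 genes mutated, the quadruple mutant. Where values are listed without names, they follow this order within each set of 4. The study concerns the part of SET-32 in nuclear RNAi, and its H3K9me3 libraries were not analysed here. In whole worms, Pol II in more cells and more Pol II per cell cannot be told apart. Values are RPKM, the reads of a bin per kb of its length, scaled to 1 M reads of the library. Each library held an estimated 3.0 to 6.60 M reads, so that 8 RPKM meant 24.0 to 52.8 reads and carried 13.8 to 20.4% counting error. The triple SET and quadruple mutants stood apart in their even coverage. Over all bins their 90th percentile exceeded the 10th by factors of 3.72 and 4.31, against 7.63 to 24.96 in the others.

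The chosen bins were one portion of a larger set of bins. Of all bins, 1216 (1.21%) were higher in all 4 hrde-1 mutants than in all other libraries and 840 (0.838%) were lower. Whether these shares exceed the scatter between single libraries was not tested. Past the limits on ratio and level, which were applied to the higher side only, were 820 bins. They comprised 180 GRTS bins, 220 bins within 5 kb of one, 42 GRH and 6 misanotated bins farther away, and the 372. Thus the 372 made up 45.4% of these bins but 26.7% of their summed difference in RPKM, while the GRTS bins made up 22.0% and 44.3%. Dividing each library by its median before the rule gave 307 bins, 226 of them among the 372.

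Pol II over the 372 bins was moderate, and it was not absent when HRDE-1 was present. The median bin read 7.01 RPKM in N2, 6.50 in set-32, 7.29 RPKM in met-2 set-25 and 9.07 in the triple SET mutant. It read 17.1 RPKM in hrde-1 and 20.04 RPKM in set-32 hrde-1, then 18.1 RPKM for met-2 set-25 hrde-1 and 17.3 RPKM for the quadruple mutant. The mutant medians were thus close to each other, and those with intact hrde-1 lay above the median of all bins, which was 3.62 to 7.10 RPKM in the same 4 libraries. The median ratio of means was 2.25, at least 2 in 268 bins and at least 4 in 18. For the 191 GRTS bins the median ratio was 7.04, with medians of 3.95 to 7.84 RPKM in the libraries with hrde-1 and 32.05 to 58.9 RPKM in the mutants. The wider gap between both lists was on the mutant side.

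**Figure D1:**
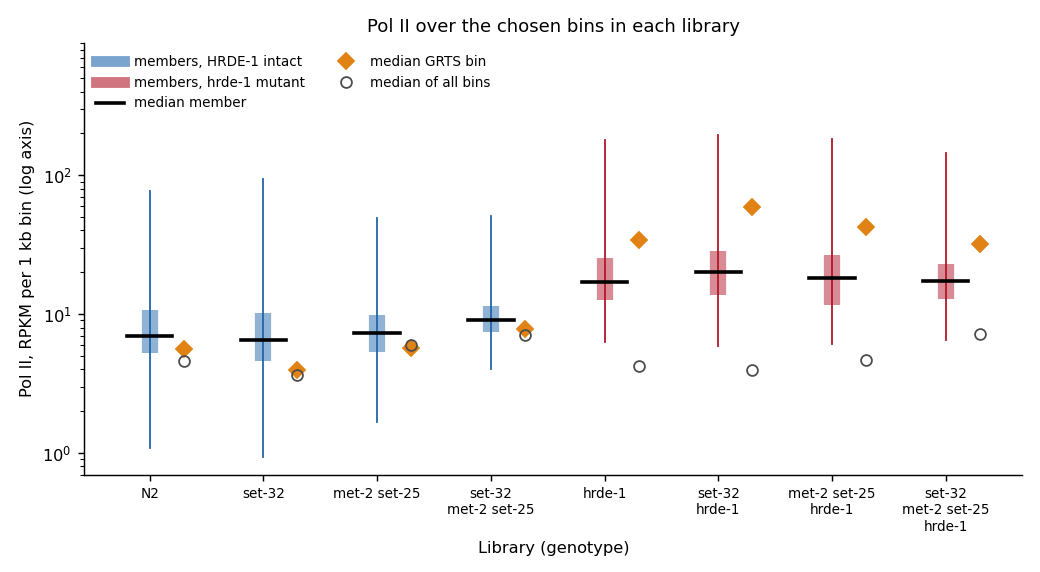
Pol II in RPKM per 1 kb bin (log axis) in each of the 8 libraries for the 372 bins, with thin lines from the lowest to the highest bin, thick bars between the quartiles and black marks at the median. Diamonds give the median of the 191 GRTS bins and open circles that of all 100257 bins. The black marks lie between 6.50 and 9.07 RPKM with intact hrde-1 and between 17.1 and 20.04 RPKM in the mutants, below the diamonds there.

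The separation between the groups was often narrow. The lowest mutant exceeded the highest other library by a median factor of 1.29, and by a factor of at least 2 in 22 bins. Just inside the ratio limit stood III 8696001 to 8697000 and II 2027001 to 2028000, both at 1.701, and just outside it I 2044001 to 2045000 and II 8162001 to 8163000, both at 1.69. At the level limit, the nearest bins inside were V 1701001 to 1702000 at 8.10 RPKM and X 12614001 to 12615000 at 8.15 RPKM. Outside it were IV 12513001 to 12514000 at 7.85 RPKM and II 18001 to 19000 at 7.66 RPKM. Among the mutants set-32 hrde-1 was the highest in 163 bins, met-2 set-25 hrde-1 was so in 104, hrde-1 alone in 66 and the quadruple mutant in 39. Among the others the evenly covered triple SET mutant was the highest in 202 bins. The library that set the upper bound was therefore most often that one. Leaving it out of the rule gave 476 bins in place of 372. Every other single omission raised the count too. Without set-32, which was the highest of its group in 59 bins, it was 470, and without the quadruple mutant 463.

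Chromosome V, which held 44.0% of the GRTS bins, held 23.9% of the chosen bins, and the X chromosome, which had 0 GRTS bins, held 21 of them. Chromosome II held 87, V 89, I 70, IV 67 and III 38. Per chromosome, the chosen bins were 0.569% of all bins on II, 0.465% on I, 0.425% on V, 0.383% on IV, 0.276% on III and 0.119% on X. Merged over gaps of up to 1 bin, the 372 bins formed 172 regions. Of these 88 were single bins and 40 had 2 bins, while 16 regions of at least 5 bins held 111 bins. On the autosomes, 293 of 351 bins (83.5%) lay in the outer stretches when each chromosome was cut into 3 of equal length, as did 151 of 191 GRTS bins (79.1%). The outer stretches are 2 of the 3, so most bins of any kind lie in them. The sides were unequal, with 56 bins in the left and 20 in the right stretch of chromosome II and 24 and 53 on chromosome V.

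**Figure D2:**
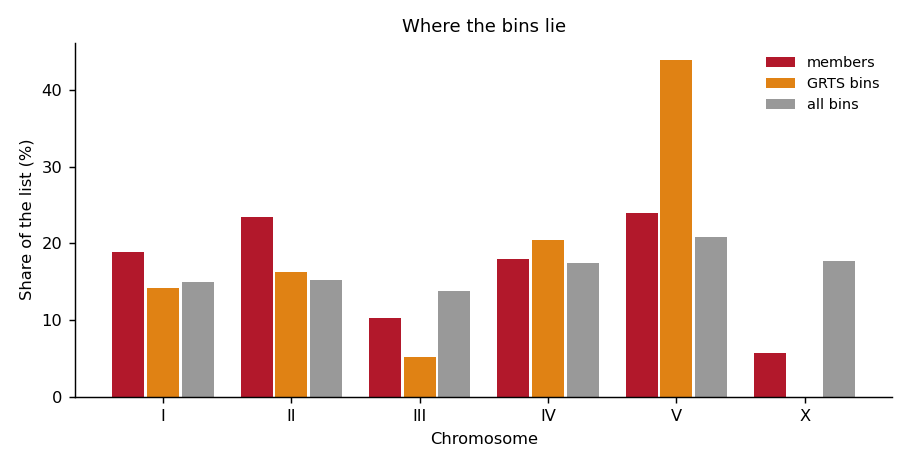
Share of each list (%) by chromosome for the 372 bins (members), the GRTS bins and all bins of the table. Chromosome V holds 44.0% of the GRTS bins and 23.9% of the members, and X holds 21 members and 0 GRTS bins.

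The distance from a chosen bin to the nearest GRTS bin had a median of 234 kb and a range of 6 to 2771 kb. Of the 351 bins on chromosomes with a GRTS bin, 266 lay at least 100 kb away and 44 up to 20 kb. Raising the distance to 10 bins kept 350. Some of the bins lay close to GRH bins. A GRH bin lay within 5 kb of 52 bins (14.0%) and directly beside 26 of them, against 0.703% of all unmarked bins within 5 kb.

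The difference was smaller outside the regions, in part by construction. A bin 1 or 2 kb away that met the rule would have joined the region, so the step at its edge was partly set by the choice. In unmarked flanking bins the median ratio was 1.42 at 1 kb, 1.16 at 2 kb and 1.05 at 5 kb. At 1 kb the hrde-1 library read a median of 8.65 RPKM and N2 5.38, and at 10 kb they read 5.96 and 5.94. By limma (adjusted p under 0.05 over all bins) 9.78% of 317 flanking bins at 1 kb were higher with hrde-1 loss and 2.49% of 281 at 10 kb, against 0.852% of all bins tested. Flanks next to a bin chosen for its difference share its surroundings, so these percentages are descriptions.

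**Figure D3:**
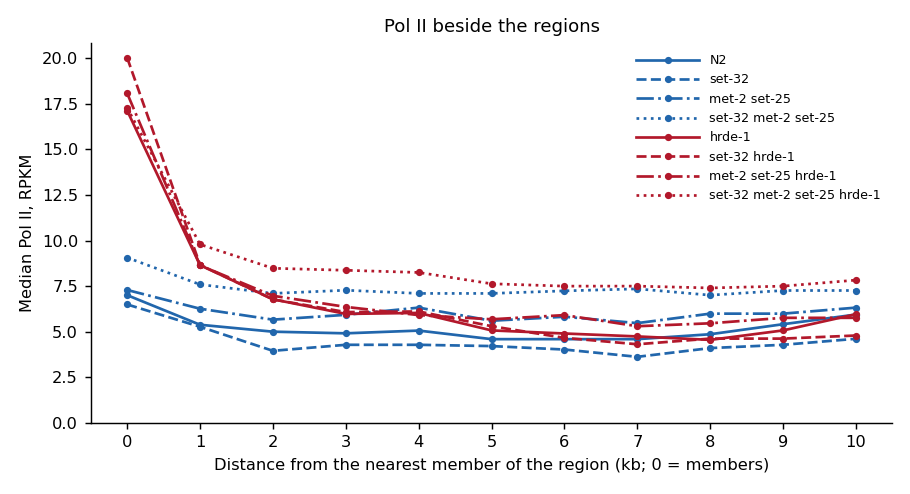
Median Pol II in RPKM over the 372 bins (distance 0) and over unmarked bins 1 to 10 kb outside the regions, with 1 line for each library. The hrde-1 mutant libraries (red) drop from 17.1 to 20.04 RPKM to 8.64 to 9.79 RPKM at 1 kb, and from 2 kb on the colours are interleaved. Bins at 1 and 2 kb did not meet the rule, so the drop from distance 0 was partly set by the choice.

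The region with the largest ratio lay on chromosome II from 10123001 to 10125000, 813 kb from a GRTS bin. Its Pol II was 2.37 RPKM in N2, 1.16 in set-32, 3.11 RPKM in met-2 set-25 and 4.50 in the triple SET mutant. It reached 11.8 RPKM in hrde-1, 37.1 RPKM in set-32 hrde-1, 15.8 once met-2 set-25 were lost as well and 42.4 in the quadruple mutant. The mutants averaged 26.8 ± 15.2 RPKM and the others 2.78 ± 1.40 RPKM (SD, n = 4 libraries), a ratio of 9.63. Both mutants that also lacked set-32 stood above both that kept it.

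The next regions by ratio were short as well, and they did not share one order among the mutants. At V 3934001 to 3935000, the 4 libraries with hrde-1 read 2.16, 1.65, 1.66 and 7.59 RPKM. The mutants read 12.1, 40.1, 10.2 and 13.1 RPKM, a ratio of means of 5.77. One library, set-32 hrde-1, thus carried most of that difference. At III 5359001 to 5361000 the libraries with hrde-1 read 3.95, 5.47, 5.01 and 6.12 RPKM. The mutants read 27.5, 27.3, 35.2 and 10.9 RPKM (ratio 4.91). Here the quadruple mutant was the low one.

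On chromosome IV from 1977001 to 1979000 the first 4 read 7.51, 10.3, 8.96 and 10.8 RPKM and the mutants 19.4, 40.6, 54.6 and 56.7 RPKM (ratio 4.56). A similar climb was seen at I 13852001 to 13855000, with 13.6, 10.9, 12.03 and 12.7 RPKM and then 25.3, 48.6, 70.1 and 74.2 RPKM (ratio 4.43). In both, each mutant combination exceeded hrde-1 alone. By contrast, at I 13102001 to 13103000 the mutants were within a narrow range of 12.9 to 18.5 RPKM, over 1.95 to 6.30 RPKM in the others (ratio 4.43). At II 7471001 to 7472000 the mutants ranged from 23.6 to 48.4 RPKM, with met-2 set-25 hrde-1 the highest, and the others from 3.66 to 9.46 RPKM (ratio 4.43).

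The longest stretch was V 17630001 to 17649000, with 16 chosen bins over 19 kb. There the first 4 libraries read 8.69, 3.73, 6.50 and 8.56 RPKM and the mutants 14.9, 19.6, 18.2 and 17.8 RPKM (ratio 2.57). Next came II 1931001 to 1948000, with 16 bins over 17 kb, at 14.7, 10.4, 8.03 and 9.92 RPKM and then 29.7, 43.1, 22.7 and 24.8 RPKM (ratio 2.79). The 7 kb regions I 11061001 to 11068000, I 13930001 to 13937000, III 7669001 to 7676000 and V 20442001 to 20449000 had ratios of 2.24, 1.99, 2.77 and 2.21. The long regions were thus moderate in size of difference, with ratios of 1.99 to 2.79. A GRH bin adjoined III 7669001 to 7676000, and the nearest GRTS bin to I 11061001 to 11068000 lay 6 kb away.

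Regions with the highest Pol II in the mutants often held much Pol II in the presence of HRDE-1 too. On chromosome III the bin 3848001 to 3849000 read 64.7, 94.4, 48.96 and 50.8 RPKM with hrde-1 and 125, 128, 111 and 96.0 RPKM without it. The quadruple mutant there almost met the set-32 library. On chromosome II the region 581001 to 584000 read 27.2, 40.3, 22.9 and 18.1 RPKM and then 94.3, 108, 95.1 and 82.4 RPKM. I 7893001 to 7895000 read 46.9, 54.03, 29.3 and 31.9 RPKM and then 81.9, 71.5, 102 and 87.9 RPKM. In the means of these regions the mutants were above every library with hrde-1.

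The strongest regions of the other chromosomes separated the genotypes differently. IV 1104001 to 1106000 read 18.1, 22.6, 20.9 and 29.1 RPKM and then 43.2, 64.3, 89.2 and 100.1 RPKM. V 10866001 to 10869000 read 25.4, 21.96, 31.3 and 23.2 RPKM and then 60.5, 111, 56.1 and 61.4 RPKM. The single bin X 17711001 to 17712000 read 16.6, 21.8, 14.5 and 15.7 RPKM and then 29.4, 59.4, 22.8 and 22.8 RPKM. On V and X the set-32 hrde-1 library stood far above the other mutants, and on IV the quadruple mutant was highest. Over all chosen bins a mean of at least 10 RPKM in the libraries with hrde-1 was seen in 104 and of at least 20 RPKM in 20.

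Many regions far apart in the genome gave similar values in each library. A region joined a group where it differed from at least 1 of its members by at most 0.3 on the log2 scale in all 8 libraries, a limit set after the values were seen. Because regions were chained in this way, members of 1 group could differ by more, by up to 0.76 in a library in the larger group and 0.32 in the smaller one. The largest group held 21 regions with 42 bins on all 6 chromosomes, 7 on II, 5 on I, 3 on V and 2 each on III, IV and X. They were 1 to 3 kb long, and the 19 on chromosomes with a GRTS bin lay 10 to 2403 kb from one. The median of these regions was 6.95 RPKM in N2, 6.24 in set-32, 7.78 RPKM in met-2 set-25 and 8.39 in the triple SET mutant. It was 21.8 RPKM in hrde-1, 12.2 RPKM in set-32 hrde-1, 10.5 RPKM for met-2 set-25 hrde-1 and 16.7 RPKM in the quadruple mutant. In these regions hrde-1 alone was therefore the highest library. Its 18.2 to 28.4 RPKM lay above the 10.4 to 17.0 RPKM of set-32 hrde-1 and the 8.76 to 13.6 RPKM of met-2 set-25 hrde-1. Over all bins, 26 lay within 0.3 on the log2 scale of that median profile in every library, of which 24 were chosen bins, 0 carried a mark and 2 lay near a GRTS bin. The profile came from chosen bins, so bins close to it tend to pass the value limits. The share of chosen bins among the 26 was thus largely set by the choice.

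A smaller group showed the opposite order. It held 6 regions of 4 to 6 kb with 30 bins, 2 each on chromosomes II, IV and V, among them V 3326001 to 3330000. Their median was 5.42 RPKM in N2, 4.95 in set-32, 6.48 RPKM in met-2 set-25 and 9.99 in the triple SET mutant. In the mutants it was 13.6, 22.8, 21.7 and 19.8 RPKM. Here hrde-1 alone, at 13.1 to 14.5 RPKM, was the lowest mutant in all 6 regions. Ratios were 1.98 to 2.64 in the larger group and 2.77 to 3.17 in the smaller one. Another 14 regions matched in 7 pairs, one of them V 8472001 to 8476000 and V 8488001 to 8492000. That pair read 6.47 and 6.62 RPKM in N2 but 26.2 and 26.6 RPKM in met-2 set-25 hrde-1. Because each order rests on 1 library per genotype, no test of it was made.

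**Figure D4:**
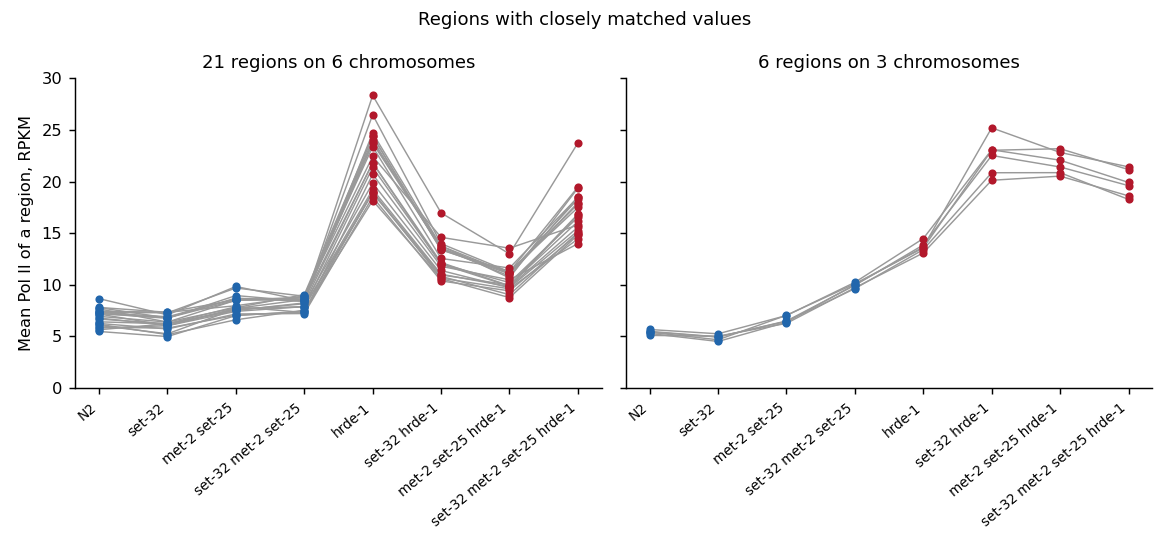
Mean Pol II in RPKM of each region in the 8 libraries, with 1 line for each region, for the 21 closely matched regions (left) and the 6 closely matched regions (right). On the left hrde-1 is the highest library at 18.2 to 28.4 RPKM, and on the right it is the lowest of the mutants at 13.1 to 14.5 RPKM.

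Values that are not whole numbers of reads were common over the chosen bins. In 270 of 372 bins (72.6%) at most 4 of the 8 values were whole to within 0.1 read. The same held for 23.3% of 32620 other bins with a mean of 8 to 40 RPKM and for 58.1% of GRTS bins. Outside both closely matched groups it was 66.0% of 300 bins, so the share was high outside them too. The sources used here do not say how reads that match several places were assigned, and whether closely matched regions are separate measurements was not tested. With both closely matched groups set aside, the 300 bins had a median ratio of 2.28.

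**Figure D5:**
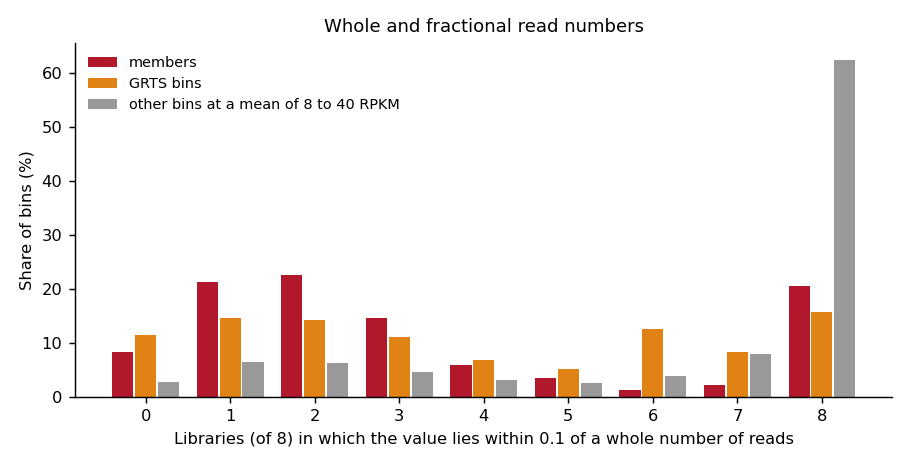
Share of bins (%) by the number of libraries, of 8, in which the value lies within 0.1 of a whole number of reads, for the 372 bins (members), GRTS bins and 32620 other bins at a mean of 8 to 40 RPKM. Whole values in all 8 libraries were found in 20.4% of the members and 62.5% of the other bins.

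In each of the 4 genetic backgrounds the hrde-1 mutant exceeded its partner in all 372 bins, as the rule requires. The median log2 difference on the log2(RPKM + 1) scale was 1.14 in the N2 background, 1.35 in set-32 and 1.23 in met-2 set-25. It was 0.78 between the triple SET and quadruple mutants, the pair of evenly covered libraries. After centring each library on its median, the values were 1.25, 1.25, 1.53 and 0.77 in the same order. The background with the largest difference thus depended on the scaling. A log2 difference of at least 1 was reached in 222, 258, 235 and 123 bins. By limma over all bins, 298 of the 372 were higher and 0 lower with hrde-1 loss, against 0.852% and 0.08% of all bins tested, from which nothing is read. Within the library-name prefix SG0117, with 3 mutants and 1 other library, the median difference was 1.27, and within SG0615, with 1 mutant and 2 others, it was 1.20. The medians of all bins were 0.23 and -0.10. The rule keeps these differences above 0 as well, and backgrounds were not matched within a prefix. Prefix SG1115 held the triple SET mutant alone.

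Loss of SET-32, and of MET-2 together with SET-25, was tested at the chosen bins, contrasts that the rule does not name. Each was fitted with limma, all 8 libraries and 3 factors in one additive model, with Benjamini-Hochberg adjustment over 100027 bins and a threshold of 0.05. All 372 bins passed the filter of a mean of at least 2 RPKM. With 1 library for each genotype, p-values rest on the scatter around that model, and from how many cultures the libraries came is not in the labels. The rule nevertheless used the same 8 values, and its demand that the hrde-1 groups do not overlap bounds how far libraries can differ within a group.

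With set-32 loss 0 of 372 bins were higher and 0 lower by limma, against 0% and 0.001% of all bins, while 31 (8.33%) had an unadjusted p under 0.05, against 4.13% of all bins. The median log2 change was 0.06 and that of all bins 0.07 (after centring each library on its median, -0.04 and -0.03). After centring, the shares at an unadjusted p under 0.05 were 1.88% of the chosen bins and 4.72% of all bins. Under quantile normalization they were 12.4% and 5.15%, so which share was larger depended on the setting. The bin nearest the threshold was V 796001 to 797000. There N2, hrde-1, met-2 set-25 and its hrde-1 mutant read 1.62, 11.9, 5.33 and 9.70 RPKM. The same genotypes with set-32 loss read 6.26, 39.8, 9.24 and 38.5 RPKM, so every background was higher without set-32. Its log2 change was 1.43 ± 0.23 (SE; limma adjusted p = 0.0552, and 0.000147 to 1.00 under the alternatives). It passed when any 1 library was left out except the triple SET mutant and met-2 set-25 hrde-1, but under none of the other settings. The next bin, V 18118001 to 18119000, had a log2 change of 0.83 ± 0.22 (SE; limma adjusted p = 0.735, alternatives 0.0932 to 0.976). On the lower side stood II 9379001 to 9380000 at -0.62 and III 7673001 to 7674000 at -0.56 (limma adjusted p = 0.975 for both, alternatives 0.271 to 1.00). A count of 0 in this design does not show that set-32 loss left the bins as they were.

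Pair by pair, the median change with set-32 loss was small and its sign varied. It was -0.10 from N2 to set-32, 0.30 from met-2 set-25 to the triple SET mutant, 0.21 from hrde-1 to set-32 hrde-1 and, from met-2 set-25 hrde-1, -0.05 to the quadruple mutant. Of these pairs, that from hrde-1 to set-32 hrde-1 shares a prefix. After centring the values were 0.18, 0.09, 0.28 and -0.57. The 21 closely matched regions went the other way from the median of all 372 in the hrde-1 backgrounds, at -0.77 from hrde-1 to set-32 hrde-1 and 0.65 from met-2 set-25 hrde-1 to the quadruple mutant.

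With met-2 set-25 loss 2 of 372 bins were higher and 0 lower by limma, against 0.318% and 0.127% of all bins, and 70 (18.8%) had an unadjusted p under 0.05, against 35.0% of all bins. The median log2 change of the chosen bins was 0.03, while that of all bins was 0.40. After centring, the medians were -0.47 and -0.10, and 26 bins (6.99%) were lower, near the 6.83% of all bins. Under quantile normalization the medians of chosen and all bins were -0.04 and -0.01. Without both evenly covered libraries they were 0.01 and 0.10, so the size of both medians depended on the setting. The shares at an unadjusted p under 0.05 changed order in some settings. For chosen and all bins they were 33.87% and 29.75% after centring and 18.55% and 7.87% under quantile normalization. Without both evenly covered libraries they were 10.48% and 6.22%. The first bin was IV 12516001 to 12517000. It read 1.08, 1.48, 8.57 and 5.94 RPKM in N2, set-32, hrde-1 and set-32 hrde-1, the first 2 resting on few reads. With met-2 set-25 loss it read 5.33, 4.21, 14.6 and 17.3 RPKM, higher in every background (log2 change 1.19 ± 0.25 SE, limma adjusted p = 0.0267). The second was IV 1105001 to 1106000, at 11.9, 14.8, 32.5 and 45.2 RPKM and then 15.3, 24.9, 70.9 and 119 RPKM (log2 change 0.88 ± 0.20 SE, limma adjusted p = 0.0486). Both calls depended on the settings. Limma adjusted p ran from 0.00416 to 0.644 for the first, which passed in 5 of 15 alternatives, and from 0.00982 to 0.742 for the second, which passed in 2. The first was lost without met-2 set-25, the triple SET mutant, hrde-1, set-32 hrde-1 or the quadruple mutant. The second passed only without N2 or met-2 set-25 hrde-1. Leaving out 1 library in turn gave 0 to 17 higher and 0 to 22 lower bins. The most came without met-2 set-25 hrde-1, at 4.57% and 5.91% of the 372 against 31.0% and 7.48% of all bins. Without N2 the counts were 16 (4.30%) and 1 (0.269%), against 4.87% and 1.91% of all bins.

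Neither called bin was part of a closely matched group. In the smaller of those groups all 30 bins had a log2 change above 0 with met-2 set-25 loss, from 0.01 to 0.69, and 0 passed by limma (16 at an unadjusted p under 0.05, as were 35.0% of all bins). Their median was 0.44, close to the 0.40 of all bins. In the larger one the 42 bins ran from -0.24 to 0.19. Pair by pair over the 372 bins, the median was 0.06 from N2, 0.37 from set-32, 0.02 from hrde-1 and -0.24 from set-32 hrde-1. The medians of all bins in these pairs were 0.15, 0.70, 0.03 and 0.52. After centring, the medians of the 372 were -0.26, -0.44, -0.11 and -0.96, all below 0. The pair from N2 lies within SG0615 and the one from set-32 hrde-1 within SG0117.

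Whether the hrde-1 difference depended on set-32 was asked with a product term. The rule kept every hrde-1 difference of these bins above 0, which limits how far the differences can diverge between backgrounds, so the counts for product terms are not independent of the choice. By limma 1 of 372 bins had a larger difference without set-32 and 0 a smaller one, against 0.133% and 0.021% of all bins, with 32 bins (8.60%) at an unadjusted p under 0.05, against 3.95% of all bins. That bin was III 2118001 to 2119000. With set-32 intact it read 7.29 RPKM in N2 and 9.62 in hrde-1, and 6.99 in met-2 set-25 and 8.79 with hrde-1 lost too. Without set-32 it read 4.28 RPKM in set-32 and 24.1 in its hrde-1 mutant, and 6.77 in the triple SET mutant and 41.4 in the quadruple mutant. Loss of HRDE-1 thus went with a small difference where set-32 was intact and a large one where it was lost. The log2 difference of differences was 2.02 ± 0.42 (SE; limma adjusted p = 0.00863, and 0.00109 to 0.837 under the alternatives). It did not pass when N2, met-2 set-25 hrde-1, the quadruple mutant or set-32 was left out.

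Whether it depended on met-2 set-25 was asked likewise. By limma 0 of 372 bins passed in either direction, against 0% and 0.001% of all bins, with 38 (10.2%) at an unadjusted p under 0.05, against 2.43% of all bins. The median was -0.32, against -0.11 for all bins, and quantile normalization turned it to 0.07. After centring, the shares at an unadjusted p under 0.05 were 1.34% of the chosen bins and 3.62% of all bins. Under quantile normalization they were 8.1% and 4.2%, so which share was larger depended on the setting. The largest positive value was at I 13854001 to 13855000. There hrde-1 loss took Pol II from 14.2 to 15.9 RPKM in the N2 background and from 12.2 to 27.02 RPKM in set-32. With met-2 set-25 lost the steps were wider, from 8.14 to 42.02 RPKM and, with set-32 lost too, from 6.82 to 43.5 RPKM. The log2 difference of differences was 1.75 (limma adjusted p = 0.256, alternatives 0.0358 to 1.00), and it passed without set-32, set-32 hrde-1 or the quadruple mutant. Its neighbour I 13853001 to 13854000 stood at 1.07 (limma adjusted p = 1.00, alternatives 0.311 to 1.00). Toward smaller differences were IV 2912001 to 2913000 at -1.57 and X 7364001 to 7365000 at -1.69 (limma adjusted p = 0.606 and 0.638, alternatives 0.063 to 1.00 and 0.00418 to 1.00), of which the latter passed without N2. A p above the threshold does not show that the response was alike with and without MET-2 and SET-25.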

How the data were processed

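Pol II ChIP-seq values of 8 libraries were analysed. Per the submitters' processing notes reads were aligned with Bowtie 0.12.7. The authors deposited RPKM per 1 kb bin. The genome build, filters and handling of multiply matching reads were not given in the sources used here. As a result, positions are those of the deposited table, no gene was assigned and the mutated genes were not checked. Of 43 library columns, 35 matched no sample label and were not used. The 3 H3K9me3 libraries were not analysed here.

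The bins, lists and tests were chosen with earlier results of these data known. Depth was estimated from the step of 1 read in the low values. Chosen bins up to 1 bin apart formed a region, and region values are means over their chosen bins. Tests used limma 3.58.1 (R 4.3.3) with an intensity trend on log2(RPKM + 1), which understates changes of low bins. A mean of 2 RPKM or more over the libraries let a bin enter an additive model of the 3 factors, or that model plus 1 product term. Tests were two-sided, with Benjamini-Hochberg adjustment and a threshold of 0.05. The fit was tested on simulated data. The rest used pandas 2.3.3, numpy 2.4.6, matplotlib 3.10.9 and Python 3.11.15.

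Regions named are the 8 with the highest ratio, the 5 longest with ties, and the one with the most Pol II in the mutants on each chromosome. Bins named are those nearest the limits and those past the threshold of a test or, where none passed, the 2 with the smallest p in each direction. V 3326001 and the pair at V 8472001 were chosen after their values were seen. Alternatives were a pseudocount of 0.5 RPKM, no filter or a mean of at least 5 RPKM, centring, quantile normalization, the library-name prefix as a term and leaving out each library. Leaving out both evenly covered libraries was added after the data were seen.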

Additional observations from a re-analysis of the deposited data

Results flagged for a closer look

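A single bin, III 2118001 to 2119000, met the rule that effects under the same contrast differ between backgrounds, by a test of the difference itself. The hrde-1 difference was larger where set-32 was lost, with a log2 difference of differences of 2.02 ± 0.42 (SE, limma adjusted p = 0.00863). Both pairs with set-32 lost (4.28 to 24.1 and 6.77 to 41.4 RPKM) moved further than both pairs with set-32 intact (7.29 to 9.62 and 6.99 to 8.79 RPKM). It was 1 of 372 bins (0.269%), against 0.133% of all bins called in this direction. The bin was chosen by a rule on the same 8 values. All 8 values were whole numbers of reads within 0.1. The adjusted p passed the threshold in 8 of 15 alternatives. It rose to 0.643 at a mean of at least 5 RPKM, to 0.635 after centring and to 0.837 after quantile normalization. Without N2 it was 0.244, without set-32 0.0959, without the quadruple mutant 0.392 and without met-2 set-25 hrde-1 0.311. With the library-name prefix as a term it was 0.00184. No prefix held all 4 combinations of hrde-1 and set-32, so no value within a prefix could be had.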

How the results depend on the processing

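No paired analysis was possible because no genotype had a second library, so no replicate number could serve as a block; differences between libraries of matched background stand in the report. The count of chosen bins was 268 to 464 under the other limits and 307 after dividing by the median, 390 to 476 without 1 library and 528 without both evenly covered libraries. The count of bins higher with hrde-1 loss, 852, was 685 to 982 without 1 library. No chosen bin called in the main fits for met-2 set-25 loss or a product term changed its direction in the settings run. After centring, however, the calls for met-2 set-25 loss lay on the lower side, in other bins. For met-2 set-25 loss the 2 higher bins became 1 with a pseudocount of 0.5 RPKM or no filter, and 0 with the prefix as a term, after centring or quantile normalization, at a minimum mean of 5 RPKM or without both evenly covered libraries. They numbered 0 to 17 without 1 library (4.57% at the most, all bins 31.0%). Lower bins numbered 26 after centring (6.99%, all bins 6.83%) and 0 to 22 without 1 library (5.91% at the most, all bins 7.48%). For the product of hrde-1 and set-32 the count of 1 larger was 0 at a mean of at least 5 RPKM, after centring or after quantile normalization, 5 with the prefix (1.34%, all bins 0.974%), 15 without both evenly covered libraries (4.03%, all bins 0.818%) and 0 to 8 without 1 library, the most without the triple SET mutant (2.15%, all bins 0.543%). Smaller ones numbered 3 with the prefix (0.806%, all bins 0.343%) and 0 to 3 without 1 library, the most without set-32 hrde-1 (all bins 0.04%). For set-32 loss, leaving out 1 library gave 0 to 2 higher bins, the most without set-32 (0.538%, all bins 0.037%). For the product of hrde-1 and met-2 set-25 it gave 0 to 1 larger (0.269% where 1, all bins 0.014% to 0.069%). Smaller ones for that product numbered 0 to 5, the most without N2 (1.34%, all bins 0.26%). The causes were not tested. Depth limits bins near 8 RPKM, at 24.0 to 52.8 reads. Lower values rest on fewer reads still, such as those of N2 at IV 12516001 (1.08 RPKM) and V 796001 (1.62 RPKM).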
